A study of Lathyrus oleraceus with 4 samples.

Results

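The transcripts described are 2 unigenes annotated as ADP-glucose pyrophosphorylase (AGPase), among the 77269 assembled sequences of a table of developing pea seeds. They are comp40170_c0_seq1, annotated as ADP-glucose pyrophosphorylase, and comp40857_c0_seq14, annotated as glucose-1-phosphate adenylyltransferase large subunit 2, and they were chosen by these identifiers and names, which the study pairs in its starch pathway. The choice was made with earlier results of these data known, so counts of calls over the pair are no independent test. Whether the table holds further AGPase unigenes was not tested. The 12 other sequences that carry the same assembly numbers, 3 of comp40170 and 9 of comp40857, were taken as context. RNA-Seq libraries came from seeds of a vegetable pea, Zhewan 1, and a grain pea, Zhongwan 6, taken 10 days after pollination (DAP), an early stage, and 25 DAP, when vegetable peas are picked. Both cultivars were grown in the field, carried no transgene or treatment, and each sample pooled whole seeds from many plants. The table holds 1 library for each cultivar and stage, so no difference between libraries given here has a replicate check. The study describes biological replicates, and how they entered the 4 libraries is not stated.

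AGPase makes ADP-glucose from glucose-1-phosphate and ATP, the step that commits hexose phosphate to starch. The enzyme is assembled from small subunits, which carry most of the catalytic activity, and large subunits, which mainly tune its response to metabolites, and glucose-1-phosphate adenylyltransferase is another name for it. In the storing pea embryo it works in the plastid, so that its substrates come from imported sucrose and from ATP brought across the plastid envelope, and its product is used by granule-bound and soluble starch synthases and then by branching enzymes.

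The annotation of comp40170_c0_seq1 does not say which subunit it encodes. The unigene is 1974 bp long and comp40857_c0_seq14 is 650 bp. They are sequences assembled without a genome, so they have no chromosome position, and 0 of the identifiers matched the pea reference gene table. Reads counted on unigenes numbered 50086351 to 70912839 per library. These totals exceed the clean reads that the study lists, so some reads may have been counted on several sequences, and the sequences of an assembly group may share or split the reads of a gene. At these depths a count of 0 allows up to 3 reads, an RPKM (reads scaled by unigene length and by the counted total of the library) of up to 0.0303 for the first unigene and 0.0921 for the second in the shallowest library. The 3 seed marker unigenes that are in the table, FUS3, an oleosin and an unknown seed protein, had reads in every library, with a summed level of 141 to 388 RPKM. They did not move together. From 10 to 25 DAP in Zhewan 1 FUS3 went from 9.47 to 211 RPKM, the oleosin from 14.2 to 6.08 and the unknown seed protein from 168 to 165. In Zhongwan 6 they went from 19.8 to 42.6, from 22.7 to 21.9 and from 98.2 to 324 RPKM.

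Both AGPase unigenes were at a few RPKM at 10 DAP and rose by 25 DAP in both cultivars, and they were highest in different cultivars. The level of comp40170_c0_seq1 was 7.06 RPKM (698 reads) in Zhewan 1 at 10 DAP, 318 RPKM (35045 reads) in Zhewan 1 at 25 DAP, 4.13 RPKM (496 reads) in Zhongwan 6 at 10 DAP and 120 RPKM (16760 reads) in Zhongwan 6 at 25 DAP. Both libraries at 25 DAP thus stood far above both at 10 DAP, with Zhewan 1 above Zhongwan 6 at each stage. The level of comp40857_c0_seq14 was 6.51 RPKM (212 reads) in Zhewan 1 at 10 DAP, 24.4 RPKM (887 reads) in Zhewan 1 at 25 DAP, 7.61 RPKM (301 reads) in Zhongwan 6 at 10 DAP and 50.5 RPKM (2327 reads) in Zhongwan 6 at 25 DAP. Here the highest library was Zhongwan 6 at 25 DAP, followed by Zhewan 1 at 25 DAP, and the 10 DAP libraries lay below both. Exact 95% intervals of the levels, which cover counting error only, did not overlap between any libraries for comp40170_c0_seq1. For comp40857_c0_seq14 the interval was 5.66 to 7.45 RPKM in Zhewan 1 and 6.77 to 8.52 RPKM in Zhongwan 6 at 10 DAP, and these neighbours did not differ beyond counting error.

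**Figure D1:**
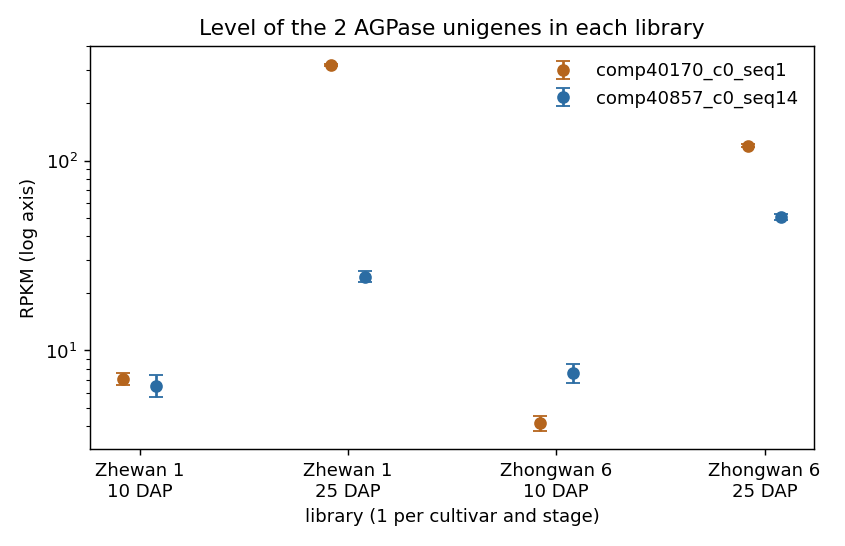
Level of comp40170_c0_seq1 (brown) and comp40857_c0_seq14 (blue) in RPKM on a log axis in each of the 4 libraries, with exact 95% counting intervals as bars. The brown points at 25 DAP lie at 318 RPKM in Zhewan 1 and 120 RPKM in Zhongwan 6, while the blue points lie in the opposite order at 24.4 and 50.5 RPKM.

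Within each library the rank of the unigenes moved with these levels. In Zhewan 1 comp40170_c0_seq1 was at rank 7368 of 62317 unigenes with reads at 10 DAP and at rank 213 of 67065 at 25 DAP. In Zhongwan 6 it moved from rank 15464 of 67976 to rank 507 of 65954. The large subunit unigene comp40857_c0_seq14 moved from rank 7967 to rank 2891 in Zhewan 1 and from rank 9062 to rank 1154 in Zhongwan 6. At 25 DAP comp40170_c0_seq1 was thus the more highly ranked of the pair in both cultivars, and at 10 DAP in Zhewan 1 only.

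The change from 10 to 25 DAP asks how AGPase transcripts move as the seed passes from cell division to filling. In Zhewan 1 comp40170_c0_seq1 rose 45.1-fold (95% counting interval 41.8 to 48.6, log2 ratio 5.49) and comp40857_c0_seq14 rose 3.75-fold (3.23 to 4.38, log2 ratio 1.91). In Zhongwan 6 the rises were 29.0-fold (26.5 to 31.8, log2 ratio 4.86) and 6.64-fold (5.88 to 7.51, log2 ratio 2.73). Fisher's exact test, two-sided, was run on the reads of a unigene against the rest of the library and adjusted over every unigene with a read. A change was called where the false discovery rate did not exceed 0.001 and the ratio reached 2-fold. This test compares libraries, not conditions. Both unigenes, 2 of 2, were called higher at 25 DAP in each cultivar, where 20.7% of all unigenes tested were called higher in Zhewan 1 (30.1% in either direction) and 9.08% in Zhongwan 6 (25.1% in either direction). Over all unigenes tested the log2 ratio had a median of 0.69 in the former cultivar and -0.24 in the latter. The pair was chosen with earlier results of these data known, so its count of calls is no independent test against those shares.

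Both AGPase unigenes reached an RPKM of 10 only at 25 DAP. Among unigenes that reached it in either library of the pair, few rose more than comp40170_c0_seq1. In Zhewan 1 they numbered 287 of 8893 (3.23%) and in Zhongwan 6 176 of 8462 (2.08%). For comp40857_c0_seq14 the numbers were 2139 (24.1%) in Zhewan 1 and 509 (6.02%) in Zhongwan 6, so its rise in Zhewan 1 was one that many abundant unigenes exceeded. Without that filter, 16.7% of all unigenes tested in Zhewan 1 and 9.71% in Zhongwan 6 rose more than comp40170_c0_seq1. For comp40857_c0_seq14 these shares were 28.2% and 11.8%. They include unigenes with no read at 10 DAP. The rise of comp40857_c0_seq14 in Zhewan 1 had a log2 ratio of 0.79 and was not called when the reads of its 10 sequences were summed. With an assumed coefficient of variation of 0.4 between replicates it was not called in either cultivar.

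**Figure D2:**
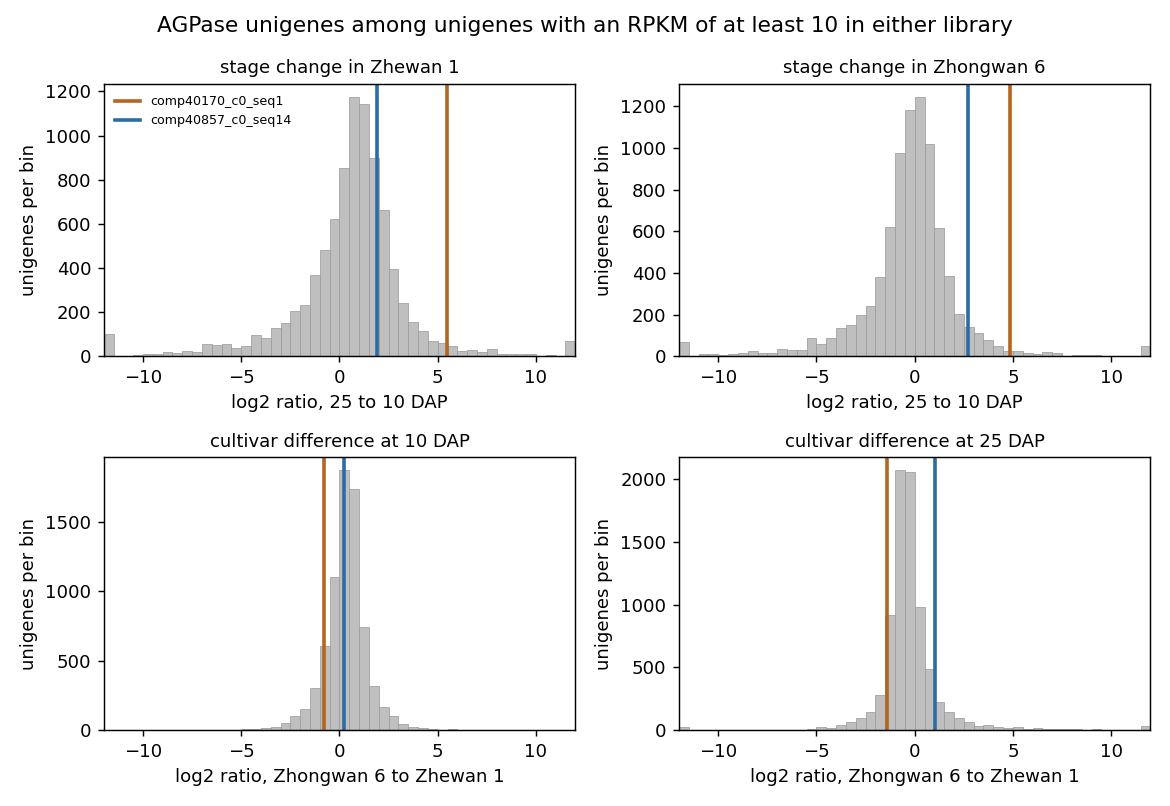
Number of unigenes by log2 ratio in each of the 4 comparisons, for unigenes that reached 10 RPKM in either library, with comp40170_c0_seq1 (brown line) and comp40857_c0_seq14 (blue line). Unigenes beyond 12 on either side, among them those with no read in one library, are in the end bars, and at 25 DAP the brown line lies at -1.41 and the blue line at 1.05.

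At 10 DAP neither unigene was called different between the cultivars. The level of comp40170_c0_seq1 in Zhongwan 6 was 0.585 times that in Zhewan 1 (0.520 to 0.657, log2 ratio -0.77). For comp40857_c0_seq14 the ratio was 1.17 with an interval that includes 1 (0.977 to 1.40, log2 ratio 0.22), and this direction turned to a log2 ratio of -0.18 with median-ratio scaling of the libraries and -0.15 with TMM scaling. Of the pair, 0 of 2 were called at 10 DAP, where 13.4% of all unigenes were called, 10.4% higher and 3.07% lower in Zhongwan 6. With median-ratio or TMM scaling comp40170_c0_seq1 was called lower in Zhongwan 6 at this stage, at log2 ratios of -1.17 and -1.15.

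At 25 DAP the pair differed between the cultivars in opposite directions. The vegetable pea Zhewan 1 had 2.66 times the level of comp40170_c0_seq1 found in Zhongwan 6 (2.61 to 2.71, log2 ratio of Zhongwan 6 to Zhewan 1 -1.41). The grain pea Zhongwan 6 had 2.07 times the level of comp40857_c0_seq14 found in Zhewan 1 (1.91 to 2.23, log2 ratio 1.05). Both unigenes were called, 1 lower and 1 higher in Zhongwan 6, where 12.3% of all unigenes were called lower and 4.93% higher, 17.2% in all. The median log2 ratio over all unigenes tested was -0.42. Both directions held with each of the 3 other scalings of the libraries. The call of comp40170_c0_seq1 was lost with TMM scaling at a log2 ratio of -0.98, and neither call was made once a coefficient of variation of 0.2 or 0.4 between replicates was assumed. In the study's qRT-PCR the AGPase transcript peaked earlier in Zhongwan 6 than in Zhewan 1, where the peak was at 25 DAP. The cultivar differences at 25 DAP are thus those of a single day and not of the whole course.

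The ratio of the unigenes to each other within a library does not depend on how the libraries are scaled. The level of comp40170_c0_seq1 was 1.08 times that of comp40857_c0_seq14 in Zhewan 1 at 10 DAP, with a counting interval that includes 1 (0.928 to 1.27), and 13.0 times (12.2 to 13.9) at 25 DAP. In Zhongwan 6 it was 0.543 times (0.469 to 0.628) at 10 DAP and 2.37 times (2.27 to 2.48) at 25 DAP. Of the pair, comp40857_c0_seq14 was thus the more abundant only in the grain pea at 10 DAP. The excess of comp40170_c0_seq1 over it was greatest in the vegetable pea at 25 DAP. Against comp40857_c0_seq3, a longer sequence of the component of comp40857_c0_seq14, comp40170_c0_seq1 was lower at 10 DAP in both cultivars. It was at 0.705 times that level in Zhewan 1 and 0.436 times in Zhongwan 6. The log2 stage ratio of comp40170_c0_seq1 exceeded that of comp40857_c0_seq14 by 3.58 (3.34 to 3.83) in Zhewan 1 and by 2.13 (1.91 to 2.34) in Zhongwan 6. The log2 ratio of Zhongwan 6 to Zhewan 1 differed between the unigenes by -0.999 (-1.30 to -0.70) at 10 DAP and by -2.46 (-2.57 to -2.34) at 25 DAP. All 4 differences between the pair, each a two-sided Wald test on the log ratio of ratios against counting error, passed an adjusted threshold of 0.05. With an assumed coefficient of variation of 0.4 the difference remained past the threshold in 1 of the 4, the stage change in Zhewan 1.

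Whether the stage change itself differed between the cultivars was tested on the log ratio of the stage ratios. The rise of comp40170_c0_seq1 was 1.55 times larger (1.38 to 1.75) in Zhewan 1, a log2 difference of -0.64, but this difference turned to 0.15 with median-ratio and to 0.17 with TMM scaling. The rise of comp40857_c0_seq14 was 1.77 times larger (1.46 to 2.14) in Zhongwan 6, a log2 difference of 0.82, which became 1.61 with median-ratio and 1.63 with TMM scaling. Neither difference reached 2-fold, so 0 of 2 were called as deposited, where 46.5% of the 32662 unigenes with at least 10 reads in every library were called, 7.89% with the larger ratio in Zhongwan 6 and 38.6% in Zhewan 1. With either of those scalings the larger rise of comp40857_c0_seq14 in Zhongwan 6 was called.

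The sequences that share an assembly number with comp40170_c0_seq1 moved with it. The comp40170 group holds a second sequence in the same component, comp40170_c0_seq2 of 1842 bp, and comp40170_c1_seq1 of 881 bp and comp40170_c1_seq3 of 1923 bp in the neighbouring component, the latter pair named after their values were seen. The level of comp40170_c0_seq2 was 3.15, 232, 3.12 and 58.9 RPKM in Zhewan 1 at 10 and 25 DAP and Zhongwan 6 at 10 and 25 DAP. In the same order comp40170_c1_seq3 was at 2.77, 198, 2.67 and 44.7 RPKM, and comp40170_c1_seq1 at 0.476, 85.8, 1.34 and 12.5 RPKM. In every library comp40170_c0_seq1 was the most abundant of the 4, and all of them were highest in Zhewan 1 at 25 DAP.

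All 3 of the other comp40170 sequences were called higher at 25 DAP in both cultivars and lower in Zhongwan 6 at 25 DAP, as deposited and with each of the 3 other scalings. As deposited, 20.7% of all unigenes were called higher at 25 DAP in Zhewan 1 and 9.08% in Zhongwan 6. At 25 DAP 12.3% were called lower in Zhongwan 6. For comp40170_c0_seq2 the rise was 73.6-fold in the vegetable pea (65.6 to 82.9) and 18.9-fold in the grain pea (17.0 to 21.1), and that of comp40170_c1_seq3 was 71.3-fold and 16.8-fold. The rise of comp40170_c1_seq1 was 180-fold (118 to 291) in Zhewan 1, from 21 reads, and 9.33-fold (7.33 to 12.1) in Zhongwan 6. These 3 rises were called larger in Zhewan 1, by 3.90, 4.25 and 19.3 times in the order just given, and these calls were also made with each other scaling. As deposited, 38.6% of all unigenes tested for this difference were called larger in Zhewan 1. The log2 differences of comp40170_c0_seq2, comp40170_c1_seq3 and comp40170_c1_seq1 between the cultivars, -1.96, -2.09 and -4.27, stand beside -0.64 for comp40170_c0_seq1. At 10 DAP only comp40170_c1_seq1 differed, 2.82 times higher in Zhongwan 6 (1.72 to 4.83), a call that was not made with median-ratio or TMM scaling. As deposited, 10.4% of all unigenes were called higher in Zhongwan 6 at 10 DAP.

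The division of reads between comp40170_c0_seq1 and comp40170_c0_seq2 changed with stage, and in opposite directions in the cultivars. The share of comp40170_c0_seq1 in the reads of the component was 70.6% (95% Wilson interval 67.7% to 73.3%) in Zhewan 1 at 10 DAP and 59.5% (59.1% to 59.9%) at 25 DAP. In Zhongwan 6 it was 58.6% (55.3% to 61.9%) at 10 DAP and 68.5% (67.9% to 69.1%) at 25 DAP. Summed over both sequences, the rise of reads was 53.5-fold for Zhewan 1 against 24.8-fold for Zhongwan 6, and Zhewan 1 had 3.06 times the sum of Zhongwan 6 at 25 DAP. Summed over all 4 sequences the rises were 59.3-fold and 21.9-fold, and Zhewan 1 had 3.42 times the sum of Zhongwan 6 at 25 DAP.

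**Figure D3:**
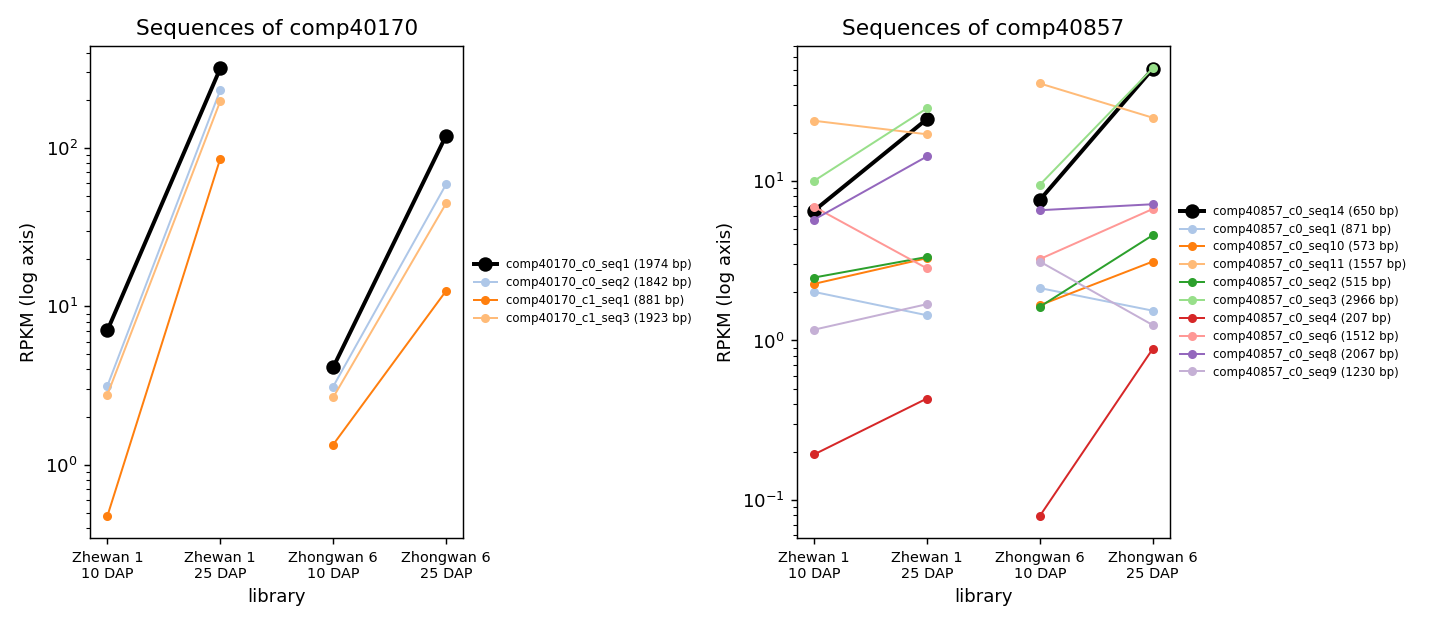
Level in RPKM on a log axis of each sequence of comp40170 (left) and comp40857 (right) in the 4 libraries, with lines joining 10 to 25 DAP within a cultivar and the AGPase unigenes in black. All 4 lines of comp40170 climb in both cultivars, whereas the 10 sequences of comp40857 hold rising and falling ones.

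The comp40857 component was less uniform. The longest of its 10 sequences, comp40857_c0_seq3 of 2966 bp, followed comp40857_c0_seq14 closely. Its level was 10.0 RPKM in Zhewan 1 at 10 DAP, 28.6 RPKM in Zhewan 1 at 25 DAP, 9.47 RPKM in Zhongwan 6 at 10 DAP and 50.9 RPKM in Zhongwan 6 at 25 DAP. The rise was 2.85-fold in Zhewan 1 (2.69 to 3.02) and 5.37-fold in Zhongwan 6 (5.10 to 5.66), and the call in Zhewan 1 was lost with median-ratio and TMM scaling, at a log2 ratio of 0.96 with each. At 25 DAP its level was 1.78 times higher in Zhongwan 6 (1.72 to 1.85), below the 2-fold threshold but called with each of the 3 other scalings. The level of comp40857_c0_seq14 was 0.650, 0.856, 0.803 and 0.992 times that of comp40857_c0_seq3 in the same order of libraries. Set against this longer sequence, comp40170_c0_seq1 was at 0.705 times its level in Zhewan 1 at 10 DAP and 11.1 times at 25 DAP, and at 0.436 and 2.35 times in Zhongwan 6.

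As deposited, no sequence of the component besides these was called higher at 25 DAP in both cultivars. Counting comp40857_c0_seq3, 6 of the 9 sequences other than comp40857_c0_seq14 had a stage ratio above 1 in each cultivar. The most abundant one at 10 DAP, comp40857_c0_seq11 of 1557 bp, was at 23.9 and 19.6 RPKM in Zhewan 1 and at 40.9 and 24.9 RPKM in Zhongwan 6 at 10 and 25 DAP. Its stage ratios were 0.823 (0.770 to 0.879) and 0.610 (0.580 to 0.640), neither of them past 2-fold. The 2067 bp comp40857_c0_seq8 rose 2.49-fold (2.26 to 2.74) in Zhewan 1, a call not made with any of the 3 other scalings, and had a ratio of 1.09 (0.994 to 1.20) in Zhongwan 6. Its rise was called larger in Zhewan 1, by 2.28 times (a log2 difference of -1.19), but this was -0.40 and not called with median-ratio scaling.

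Of the 9 other comp40857 sequences, 2 were called higher and 1 lower at 25 DAP in Zhewan 1, where 20.7% and 9.42% of all unigenes were called. In Zhongwan 6 the counts were 3 higher and 1 lower, where 9.08% and 16.0% were called. With median-ratio scaling the counts were 0 higher and 2 lower in Zhewan 1 and 4 higher and 1 lower in Zhongwan 6. Over all unigenes that scaling called 9398 higher and 10205 lower of 74253 in Zhewan 1, and 8469 and 9795 of 74915 in Zhongwan 6. The remaining sequences of the component stayed below 10 RPKM. Among them comp40857_c0_seq6 of 1512 bp, named after its values were seen, fell from 6.89 to 2.83 RPKM in Zhewan 1 (0.411 times, 0.351 to 0.480) and rose from 3.24 to 6.68 RPKM in Zhongwan 6 (2.06-fold, 1.80 to 2.37), as deposited and with each other scaling. It was called lower in Zhongwan 6 at 10 DAP (0.470 times) and higher there at 25 DAP (2.36 times). The median log2 ratio of the 9 sequences was 0.53 in Zhewan 1 and 0.91 in Zhongwan 6, beside 0.69 and -0.24 over all unigenes tested.

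The reads of the comp40857 component moved between sequences. The share held by comp40857_c0_seq14 was 4.27% (95% Wilson interval 3.74% to 4.87%) in Zhewan 1 at 10 DAP, 9.24% (8.68% to 9.84%) in Zhewan 1 at 25 DAP, 4.03% (3.61% to 4.50%) in Zhongwan 6 at 10 DAP and 12.9% (12.4% to 13.4%) in Zhongwan 6 at 25 DAP. The share of comp40857_c0_seq3 went from 30.0% to 49.3% in Zhewan 1 and from 22.9% to 59.3% in Zhongwan 6, and that of comp40857_c0_seq11 from 37.5% to 17.8% and from 51.9% to 15.2%. In both cultivars comp40857_c0_seq11 held the largest share at 10 DAP and comp40857_c0_seq3 at 25 DAP. Summed over the 10 sequences, the ratio of 25 to 10 DAP was 1.73 in Zhewan 1 (1.67 to 1.79) and 2.08 in Zhongwan 6 (2.02 to 2.13), and the sum was 1.48 times higher in Zhongwan 6 at 25 DAP (1.44 to 1.52). The larger rises of comp40857_c0_seq14 thus stood beside a smaller change of the component as a whole, and whether the 10 sequences come from 1 gene or several was not tested.

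**Figure D4:**
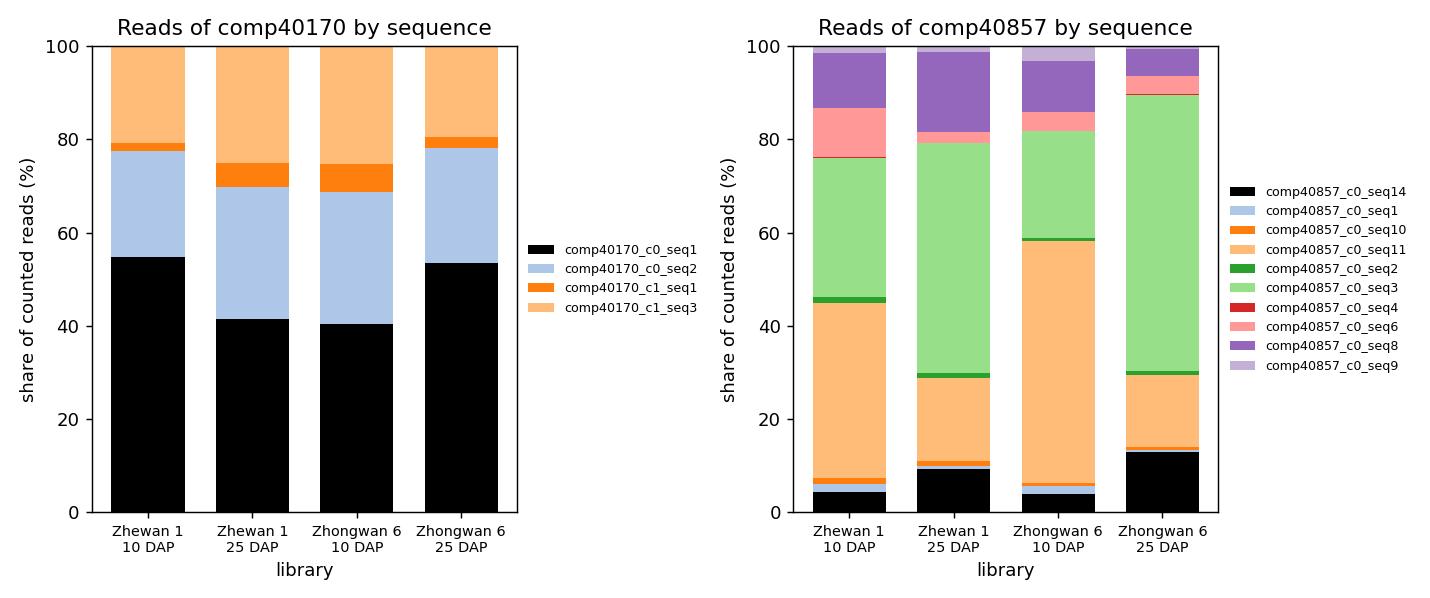
Share of the counted reads of comp40170 (left, 4 sequences) and comp40857 (right, 10 sequences) held by each sequence in the 4 libraries, in percent, with the AGPase unigenes in black. The share of comp40857_c0_seq3 grows to 49.3% and 59.3% at 25 DAP while that of comp40857_c0_seq11 shrinks to 17.8% and 15.2%.

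The unigenes before and after AGPase in the sugar and starch pathway are given as context for these changes. A list of 16 unigenes of sucrose import, cleavage and synthesis, hexose phosphate and ATP supply, starch synthesis and starch breakdown had 12 members in the table. It was chosen with earlier results of these data known, in part from unigenes named in an earlier description of them. Its counts are thus no independent test against all unigenes. In Zhewan 1 10 of 12 were called higher at 25 DAP and 0 lower, where 20.7% and 9.42% of all unigenes were called. In Zhongwan 6 7 of 11 were called higher and 2 lower, where 9.08% and 16.0% were called. At 10 DAP 2 of 11 were called higher and 1 lower in Zhongwan 6, beside 10.4% and 3.07% of all unigenes. At 25 DAP 1 of 12 was called higher and 7 lower, beside 4.93% and 12.3%, and of the 7 lower 4 stayed called with median-ratio and 3 with TMM scaling. The median log2 ratio of the list was 3.43 for the stage change in Zhewan 1, or 2.44 with counts of 0 set to 3 reads, 1.47 for that in Zhongwan 6, 0.03 for the cultivars at 10 DAP and -1.31 at 25 DAP. Over all unigenes tested the medians were 0.69, -0.24, 0.53 and -0.42.

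The listed unigenes of enzymes that lead to glucose-1-phosphate rose in both cultivars. Phosphoglucomutase (comp37100_c1_seq1), which makes glucose-1-phosphate, was at 14.9, 148, 14.9 and 114 RPKM in Zhewan 1 at 10 and 25 DAP and Zhongwan 6 at 10 and 25 DAP, a rise of 9.96-fold and 7.61-fold. Sucrose synthase (comp38328_c0_seq2), which cleaves imported sucrose, had a rise 10.0 times larger in Zhewan 1, and that of comp37981_c0_seq1, annotated as UTP-glucose-1-phosphate uridylyltransferase-like, which turns UDP-glucose into glucose-1-phosphate, was 2.07 times larger there. With median-ratio scaling the log2 difference of the latter was -0.26 and no longer called, while sucrose synthase stayed called at -2.53. Phosphoglucomutase itself had a log2 difference of -0.39 that was not called and turned to 0.40 with median-ratio scaling.

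The 2 listed starch synthesis unigenes, of enzymes that use ADP-glucose or its products, had larger rises in Zhongwan 6, as deposited and with each other scaling. Other unigenes of starch synthesis, such as those of soluble starch synthases, were not examined. Nor were the other sequences of comp40911_c0, the component of the granule-bound starch synthase 1 unigene. The granule-bound starch synthase 1 unigene (comp40911_c0_seq4), which makes amylose, had a rise 7.62 times larger in Zhongwan 6 (7.27 to 7.98), and starch branching enzyme II (comp39207_c0_seq1), which adds the branches of amylopectin, 3.47 times larger (3.29 to 3.66). The synthase was at 280, 1533, 52.0 and 2165 RPKM in the order of libraries above, so that at 10 DAP it was called lower in Zhongwan 6, at 0.185 times, while at 25 DAP its ratio of 1.41 was not called. Starch branching enzyme II was the 1 list member called higher in Zhongwan 6 at 25 DAP, at 2.39 times (2.32 to 2.46), beside 2.07 times for comp40857_c0_seq14. Beta-amylase 6 (comp10192_c0_seq1), a starch-degrading enzyme, had 4, 92, 11 and 24 reads in the order of libraries above and was called higher at 25 DAP in Zhewan 1. In Zhongwan 6 its ratio was 1.87 (0.883 to 4.24), and the difference between the stage changes was not tested for so few reads. At 25 DAP it was called lower in Zhongwan 6, at 0.205 times (0.125 to 0.325).

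The ATP/ADP transporter unigenes, of the family that brings ATP into plastids, had few reads. The 2 sequences of comp11758 were at 0.243 to 0.981 RPKM in all libraries. As deposited they rose 3.50-fold and 3.25-fold in Zhewan 1, the latter not called with median-ratio or TMM scaling, and fell to 0.370 and 0.343 times in Zhongwan 6. They carry the same name and component, so they may count the same reads. The third sequence, comp10562_c0_seq1, had 0, 9, 7 and 5 reads in the order of libraries above and passed no test.

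**Figure D5:**
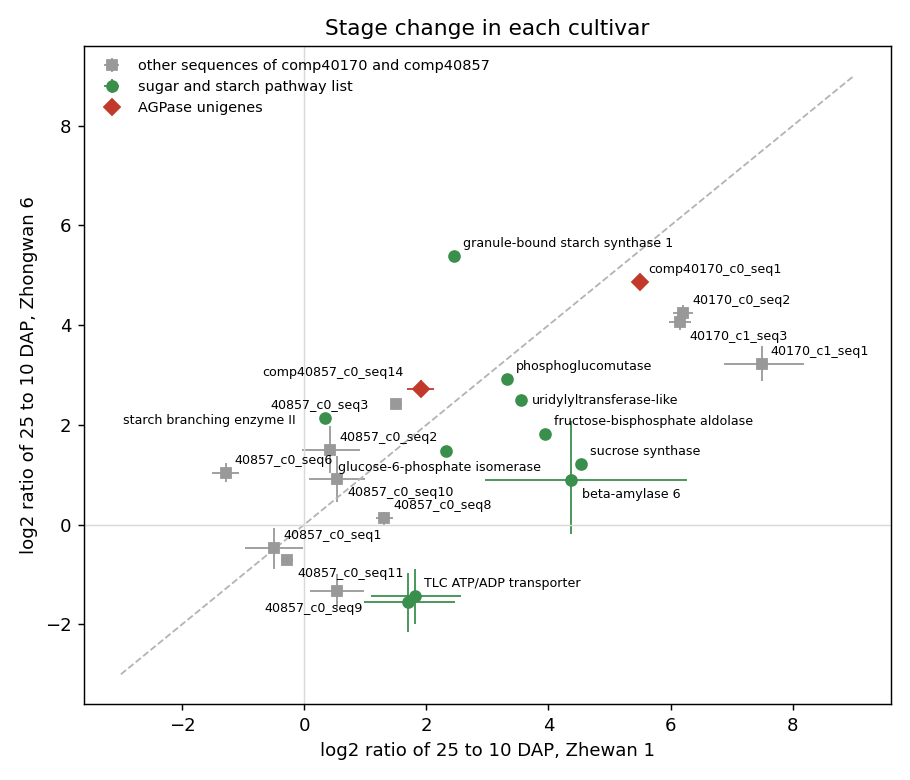
Log2 ratio of 25 to 10 DAP in Zhewan 1 (horizontal) and in Zhongwan 6 (vertical) for the AGPase unigenes (red diamonds), the other sequences of their assembly groups (grey squares) and the sugar and starch pathway list (green circles), with 95% counting intervals and a dashed line of equal change. The pathway sequences comp11071_c0_seq1 and comp10562_c0_seq1, with no read in a library, and comp40857_c0_seq4, with 1 to 13 reads, are not drawn, and comp40170_c0_seq1 lies below the line at 5.49 and 4.86, a side that turns with median-ratio scaling, while comp40857_c0_seq14 lies above it at 1.91 and 2.73.

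The unigenes nearest in pattern were found by the root mean square difference of log2 RPKM, centred over the 4 libraries, among 9816 unigenes that reached 10 RPKM in a library and had at least 10 reads in each. For comp40170_c0_seq1 they were comp30553_c0_seq2 (a difference of 0.056), comp30704_c0_seq1 (0.095) and comp33102_c0_seq2 (0.11). For example comp30553_c0_seq2 was at 3.17, 146, 1.84 and 49.6 RPKM in the order of libraries above. For comp40857_c0_seq14 they were comp39335_c1_seq3 (0.12), comp34994_c0_seq1 (0.20) and comp37416_c1_seq2 (0.20), and the first of these was at 4.57, 18.9, 6.12 and 33.0 RPKM. None of these 6 was annotated in the part of the study's annotation used here. Between the AGPase unigenes the difference was 1.71. Of the 9816 unigenes, comp40857_c0_seq14 was at place 981 in the order of likeness to comp40170_c0_seq1. In the order of likeness to comp40857_c0_seq14, comp40170_c0_seq1 was at place 7613. With 4 libraries many unigenes can share a pattern.

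Markers of green tissue moved with the stage. The photosystem II light harvesting complex gene 2.1 and the photosystem I subunit H2, both members of that list in the table, had a summed level of 30.6 RPKM in Zhewan 1 at 10 DAP, 576 RPKM in Zhewan 1 at 25 DAP, 22.1 RPKM in Zhongwan 6 at 10 DAP and 160 RPKM in Zhongwan 6 at 25 DAP. The light harvesting unigene had the same order of libraries as comp40170_c0_seq1, at 19.9, 474, 11.1 and 87.6 RPKM. The photosystem I subunit H2 was at 10.7, 101, 10.9 and 72.4 RPKM, with no difference beyond counting error between the cultivars at 10 DAP (ratio 1.02, 0.883 to 1.18). Neither marker was at 0 in any library, and their part in the AGPase values was not tested. In whole seeds, a change in the cells that make up the seed and a change in transcript per cell cannot be told apart.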

How the data were processed

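The authors removed adapter and low-quality reads, assembled all libraries with Trinity, mapped reads back with bowtie 0.12.8, and deposited read counts per unigene for 4 libraries. The authors also deposited RPKM, the count scaled by unigene length and library total. Both were used as deposited, and no reads were processed here. The members and lists were chosen with earlier results of these data known. Pairs of libraries were compared by Fisher's exact test on counts with Benjamini-Hochberg adjustment, calling a false discovery rate of 0.001 and 2-fold, with no filter and no pseudocount. Differences of ratios were tested by Wald tests. Intervals at 95% are Clopper-Pearson for reads and Wilson for shares, and cover counting error only. With 1 library per group, p-values would measure that error alone, so none is printed.

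Besides the members, the named unigenes were sequences of their components reaching 10 RPKM in a library, the pathway list, and the 3 nearest in pattern to each member. The pathway list was made from names in the readable part of the study's annotation and from unigenes named in an earlier description of these data. Alternatives were scaling by median ratios (DESeq2 1.42.0) or TMM (edgeR 4.0.16), totals without the 100 most abundant unigenes of each library, component sums, a chi-square test, a 4-fold threshold, a pseudocount of 1, an RPKM minimum of 10, and edgeR's likelihood ratio test with assumed coefficients of variation of 0.2 and 0.4. The tests were tried on simulated data first. Python 3.11.15, SciPy 1.17.1 and R 4.3.3 were used. Sequences of the unigenes were not used here.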

Additional observations from a re-analysis of the deposited data

Results flagged for a closer look

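The stage change differed between the cultivars, by a two-sided Wald test on the log ratio of ratios at a false discovery rate of 0.001 and without a fold threshold, for 10 sequences of comp40170 and comp40857. With a 2-fold threshold added, 46.5% of all unigenes tested passed. The share without it is not given here, so this count cannot be set against it. The log2 difference, Zhongwan 6 minus Zhewan 1, was -0.64 for comp40170_c0_seq1 and 0.82 for comp40857_c0_seq14. It was -1.96 for comp40170_c0_seq2, -4.27 for comp40170_c1_seq1 and -2.09 for comp40170_c1_seq3, all larger rises in Zhewan 1. Within comp40857 it was 0.91 for comp40857_c0_seq3, 2.33 for comp40857_c0_seq6, -1.19 for comp40857_c0_seq8, -1.85 for comp40857_c0_seq9 and -0.43 for comp40857_c0_seq11. With median-ratio scaling comp40170_c0_seq1 turned to 0.15 and comp40857_c0_seq11 to 0.36, and the other 8 kept their direction. The sequences comp40857_c0_seq1, comp40857_c0_seq2 and comp40857_c0_seq10 did not pass, and comp40857_c0_seq4 had too few reads to be tested. Of those that passed, comp40170_c0_seq1, comp40857_c0_seq14, comp40857_c0_seq3 and comp40857_c0_seq11 fell short of 2-fold.

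The same test passed for all 9 members of the pathway list with at least 10 reads in every library. The difference was -3.32 for sucrose synthase, -1.05 for the uridylyltransferase-like unigene, -0.86 for glucose-6-phosphate isomerase, -0.39 for phosphoglucomutase, -2.13 for fructose-bisphosphate aldolase and -3.24 for each of the comp11758 transporter sequences. It was 2.93 for granule-bound starch synthase 1 and 1.79 for starch branching enzyme II. With median-ratio scaling phosphoglucomutase turned to 0.40, and the other 8 kept their direction. The test counts reads of 4 libraries with counting error only. Together with a 2-fold threshold 46.5% of all unigenes tested passed it, while glucose-6-phosphate isomerase and phosphoglucomutase did not. The share of all unigenes that passed without that threshold is not given here, so these lists cannot be set against it.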

How the results depend on the processing

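The results were recomputed under the alternatives that apply to each, with scalings alone for the other sequences and lists. The rise of comp40170_c0_seq1 was called in both cultivars under every alternative run for it. Its log2 ratios kept their direction under the scalings, component sums and the pseudocount, the alternatives that can change them. Of the results on the pair, 80 recomputed values kept direction and call, 16 lost the call, 6 gained it and 4 reversed. Some of the 80 were fixed in advance, since a 4-fold threshold leaves the value unchanged and cannot add a call. The RPKM minimum, the chi-square test and both assumed coefficients of variation also leave the value unchanged. Under these only the call could change, not the direction. Of the counts of called unigenes, 21 stayed within 1.5 times and 27 fell further. The cause was not tested.

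For comp40857_c0_seq14 the stage change in Zhewan 1 lost its call at a log2 ratio of 0.79 with component sums and, at 1.91, with the 4-fold threshold and a coefficient of variation of 0.4, under which that in Zhongwan 6, 2.73, was also lost. At 25 DAP its cultivar difference lost its call at 0.57 with component sums and, at 1.05, with the 4-fold threshold and both coefficients of variation, and the same 3 settings removed that of comp40170_c0_seq1 at -1.41, as did TMM at -0.98. At 10 DAP median-ratio and TMM scaling gave calls for comp40170_c0_seq1 at -1.17 and -1.15 and reversed comp40857_c0_seq14 to -0.18 and -0.15. The difference between the cultivars' stage changes of comp40170_c0_seq1 reversed to 0.15 and 0.17 with these scalings and was called at -1.11 with component sums. That of comp40857_c0_seq14 was called at 1.61, 1.63 and, without the 100 most abundant unigenes, 1.36. Between the pair, the 10 DAP difference of -0.999 was lost with both coefficients of variation, and those of 2.13 for the stage change in Zhongwan 6 and -2.46 at 25 DAP with 0.4.

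Numbers of called unigenes fell with component sums, the 4-fold threshold, the pseudocount of 1, the RPKM minimum of 10 and coefficients of variation of 0.2 and 0.4, in that order, from 22349 to 14777, 13250, 14374, 5762, 14460 and 4400 for the stage change in Zhewan 1, and from 18799 to 12437, 11517, 10878, 4038, 12025 and 4157 in Zhongwan 6. Without component sums, which stayed within 1.5 times, they fell from 9579 to 3607, 4613, 2117, 3002 and 221 at 10 DAP and from 12513 to 6255, 6220, 2467, 5539 and 1696 at 25 DAP. For the difference between stage changes, with no pseudocount, they fell from 15194 to 9225, 5660, 5232, 2955 and 192. The share of calls that were higher moved with median-ratio scaling from 68.7% to 47.9% in Zhewan 1, from 36.2% to 46.4% in Zhongwan 6, from 77.1% to 49.2% at 10 DAP and from 28.6% to 52.1% at 25 DAP.

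No paired analysis was possible because each group has 1 library, and for the same reason none was left out. The RPKM minimum of 10 gave no value for the pair at 10 DAP. Depth limits the values of unigenes with few reads, such as sucrose phosphate synthase 3F (comp11071_c0_seq1), comp10562_c0_seq1 and comp40857_c0_seq4, and read sharing within components was not tested.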
